A study of Mus musculus with 8 samples.

Results

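Every gene with a probe set on both array types of the series was compared between 6 mouse hepatocellular carcinomas and 2 samples of non-tumour liver infected with adenovirus. Of 12394 genes, 41 had all 6 tumours on the same side of both livers by at least 4-fold: 25 genes were higher in the tumours and 16 were lower. The comparison used all 8 arrays of the series. The rule reads the measured levels of these same arrays, so the levels of the 41 genes are given as a description, with no test.

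The tumours came from p53-/- mice that carried the HBs transgene, named for the surface protein of hepatitis B virus, and that were 12 to 15 months old. In 3 of them the RNA component of telomerase was present (mTERC+) and in the other 3 it was absent (mTERC-), with 1 tumour from 1 mouse on each array. The livers were taken from p53-/- mice 48 h after intravenous injection of adenovirus encoding either TRF2DBDM, a form of the telomere-binding protein TRF2, or the fluorescent protein GFP, and each of these 2 arrays held a pool of RNA from 3 mice. All mice shared the p53 deletion and the C57BL/6J background, and 6 microg of total RNA was labelled per array. No HBs transgene is named for the livers and no virus for the tumours, and no source used here states how old the liver mice were. Uninfected liver and non-tumour liver of HBs mice were not analysed here. Array type, virus, transgene and tissue therefore differed together between the tumours and the livers, and their parts in any difference cannot be told apart. Age and sex may differ with them, and their parts cannot be told apart from the others either. The labels give no sex. Of the sex chromosome genes described below, Xist on its brightest probe set and Eif2s3y lay apart between tumours and livers, while Uty and Kdm5d overlapped. A pool of 3 mice gives 1 value, so the spread between mice within a liver group was not measured.

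Hepatocellular carcinoma arises from hepatocytes, the cells that make plasma proteins, bile, lipoproteins and most detoxifying enzymes of the body. Liver tumours often switch on genes of fetal liver, such as Igf2, and alter lipid synthesis. Infection of liver with adenovirus sets off cytokine signals to which hepatocytes answer with acute phase proteins, among them the serum amyloid A family and hepcidin, and it can be followed by entry of quiescent hepatocytes into the cell cycle. Telomere dysfunction, which TRF2 mutants and loss of the telomerase RNA are used to model, activates DNA damage signals and disturbs the separation of chromosomes in mitosis.

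The hepatocyte marker Alb was high in both tissues, but not every hepatocyte marker was at a like level. All 11 hepatocyte markers were measured, and Alb, the gene of serum albumin, lay between 14.89 and 15.16 in the tumours against 14.82 in the TRF2DBDM liver and 14.52 in the GFP liver, on the scale of log2(signal + 32) after quantile normalization that is used for every level below. Of the 11 markers, 3 lay above both livers in all tumours and 0 below, and the median difference was 0.40. Apob, the 1 past the 4-fold rule, ranged from 10.7 to 12.2 in the tumours, against 7.9 and 7.5 in the TRF2DBDM and GFP livers. The labels call every sample hepatocytes, yet the design text speaks of liver and of tumours as tissues, and macrophage markers were present in both. In bulk RNA, fewer cells of a type and less RNA per cell cannot be told apart. The deposited signals had a median of 96.1 to 115.3 on the tumour arrays and of 52.5 and 46.1 on the TRF2DBDM and GFP liver arrays over the 22690 shared probe sets. Correlation over the shared probe sets was 0.845 to 0.905 between tumours, 0.946 between the livers and 0.795 to 0.851 between a tumour and a liver. One mTERC- tumour, replicate 2, had a Gapdh 3'/5' probe ratio of 13.8, against 0.983 to 1.18 in the other tumours and 0.841 and 0.793 in the livers. The Actb 3'/5' ratio was 1.30 to 2.28 in the tumours, against 0.976 and 1.08 in the TRF2DBDM and GFP livers. The deposited signal of an 18S ribosomal RNA control was 318.5 to 27810 in the tumours, against 34.5 and 31.5. Both measures thus separated all tumours from both livers, and the part of RNA quality or labelling in the differences was not tested. The 18 probe sets for spiked hybridization controls had a median difference of -0.06 between tumours and livers after normalization, and none of them passed the 4-fold rule. Outside those 18, 2 control probe sets did pass it, both lower in the tumours. AFFX-ThrX-5_at had means of 11.29 in the tumours and 13.95 in the livers, and AFFX-MURINE_b1_at 10.01 and 13.63. Probe set signals are single-array summaries, and the number of arrays limits the precision of every value.

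The 41 genes past the 4-fold rule were 0.331% of all genes, 0.202% in the higher direction and 0.129% in the lower direction. Without the threshold, 11.4% of genes had all tumours above both livers and 14.5% had all tumours below both. The distance between the nearest tumour and the nearest liver, called the gap below and computed on signal + 32, ranged from 4.06-fold to 61.4-fold among the 25 higher genes and from 4.09-fold to 19.6-fold among the 16 lower genes. Just inside the threshold lay Rhoq at 4.13-fold and Eif3e at 4.06-fold among the higher genes, with Lyz1 at 3.97-fold and Cfhr2 at 3.84-fold just outside. Among the lower genes, Aurka at 4.12-fold and Saa1 at 4.09-fold were just inside, and Gja4 and Birc5, each at 3.99-fold, were just outside. The rule asks for every array, so leaving 1 out makes it easier to pass, apart from the renewed normalization. A rise in the count is therefore built in. With the GFP liver alone 71 genes were higher and 38 lower, and with the TRF2DBDM liver alone 35 were higher and 34 lower. Without mTERC- replicate 2 the rule gave 33 higher and 22 lower genes, among them all 25 higher genes and 15 of the 16 lower ones, all but Saa1. The split between the directions rested on the scaling. Higher genes made up 61.0% of the 41 after quantile normalization, 82.9% after median centring (29 higher and 6 lower) and 97.6% with the deposited scaling (82 higher and 2 lower), where the median difference of all genes was 0.55 rather than -0.03 on the log2 scale. The spiked hybridization controls had a median difference of 0.90 with the deposited scaling, against -0.06 after quantile normalization. As deposited, every whole array had a trimmed mean near 150, over 45101 probe sets for a tumour and 22690 for a liver. All 25 higher genes passed the rule with the deposited scaling too, but only Saa3 and H2ax of the lower genes did. The other 14 lower genes stayed below both livers with the deposited scaling, with log2 gaps from -0.29 for Saa1 to -1.56 for Saa2.

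**Figure D1:**
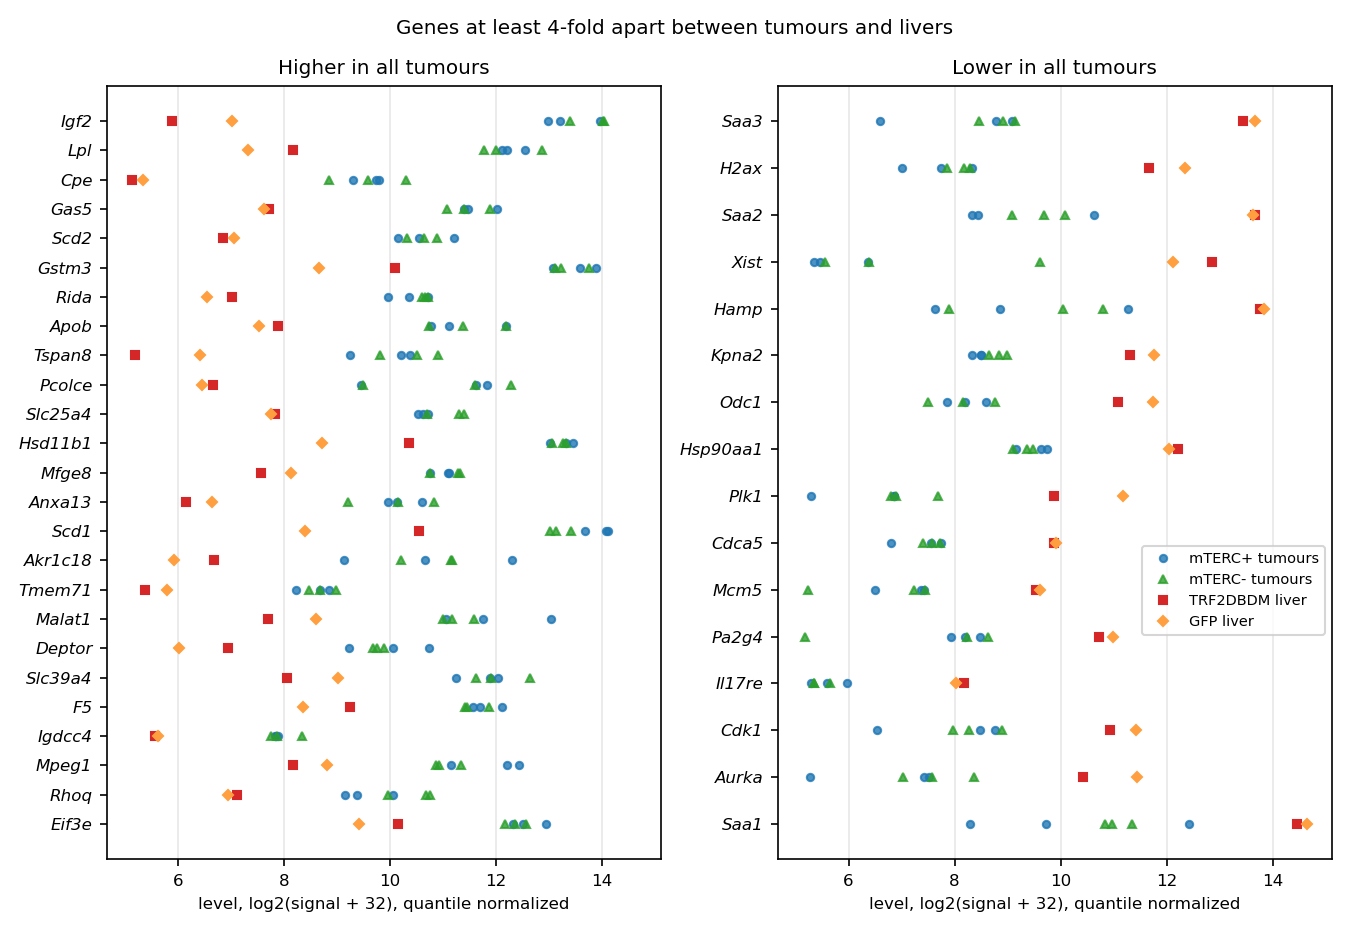
Levels of the 25 genes that were higher and the 16 genes that were lower in all 6 tumours than in both livers by at least 4-fold, on the horizontal axis as log2(signal + 32) after quantile normalization, with 1 point per array and genes ordered by gap. Circles are mTERC+ tumours, triangles mTERC- tumours, the square the TRF2DBDM liver and the diamond the GFP liver. Igf2 has the widest gap on the left and Saa3 on the right, and in every row the tumours and the livers lie apart, as the rule requires.

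Igf2, which encodes a fetal growth factor that acts through the insulin and type 1 IGF receptors, had the widest gap of all 12394 genes. Its level was 13.95, 12.97 and 13.21 in the mTERC+ tumours and 14.04, 13.39 and 14.02 in the mTERC- tumours, against 5.89 in the TRF2DBDM liver and 7.03 in the GFP liver. All tumours were thus near the top of the scale and both livers near the bottom, with a gap of 61.4-fold. In the deposited signals, before any normalization here, the tumours ranged from 9828 to 24035, and the TRF2DBDM and GFP livers were at 17.9 and 54.8. The other, dimmer Igf2 probe set pointed the same way but fell just short of the rule, with a log2 gap of 1.95. On it the tumours ranged from 7.26 to 9.40, against 5.31 and 5.16 in the TRF2DBDM and GFP livers. Igf2 was 1 of 4 genes past the rule among 50 measured oncofetal and liver tumour genes, with Scd2, Tspan8 and Akr1c18. Afp and Gpc3 did not share this pattern. Afp, the fetal albumin relative, ranged from 5.71 to 10.18 in the tumours with a median of 8.14, and was 8.59 in the TRF2DBDM liver and 10.18 in the GFP liver, so the groups overlapped. Gpc3, a cell surface proteoglycan of many human liver cancers, ranged from 5.26 to 7.01 with a median of 6.22, against 6.60 and 6.88 in the TRF2DBDM and GFP livers. H19, the neighbour and imprinted counterpart of Igf2, was not analysed here.

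Cpe, Pcolce and Mfge8 are secreted products. Cpe, a carboxypeptidase that trims peptide hormones, ranged from 8.84 to 10.30 in the tumours with a median of 9.66, and was 5.14 in the TRF2DBDM liver and 5.35 in the GFP liver, a gap of 11.2-fold. Both livers were close to the floor of the scale, where a fold on signal + 32 understates the ratio of the signals. The other Cpe probe set went the other way, with a tumour minus liver difference of -0.68, so the Cpe result rests on its brightest probe set. Pcolce, an enhancer of the protease that matures fibrillar procollagen, ranged from 9.45 to 12.28 (median 11.62), against 6.66 and 6.46 in the TRF2DBDM and GFP livers. Pcolce separated the tumours among themselves, with mTERC+ replicate 2 and mTERC- replicate 1 at 9.45 and 9.50 and the other 4 at 11.60 or above. Mfge8, a secreted bridge between dying cells and phagocytes, ranged from 10.75 to 11.33 (median 11.11), and was 7.56 in the TRF2DBDM liver and 8.14 in the GFP liver. The tumours agreed closely in Mfge8, with an SD of 0.25 (n = 6).

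Lpl, Scd1, Scd2 and Apob act in the uptake, desaturation and export of lipid. Lpl, the lipase that releases fatty acids from circulating triglyceride and that adult hepatocytes normally make little of, ranged from 11.77 to 12.87 in the tumours with a median of 12.16. The Lpl level was 8.17 in the TRF2DBDM liver and 7.33 in the GFP liver, which left a gap of 12.1-fold. The stearoyl-CoA desaturases, which make monounsaturated fatty acids, were both members. Scd2 ranged from 10.15 to 11.21 (median 10.59), against 6.85 and 7.05 in the TRF2DBDM and GFP livers. Scd1 ranged from 13.03 to 14.11 (median 13.55), against 10.55 and 8.40. The livers were close to each other for Scd2 and 2.15 apart on the log2 scale for Scd1, with the TRF2DBDM liver higher. Apob, the structural protein of very low density lipoprotein, ranged from 10.74 to 12.19 (median 11.25), and was 7.89 in the TRF2DBDM liver and 7.54 in the GFP liver. Hsd11b1, which regenerates active glucocorticoid, had the smallest range of the higher members, from 13.02 to 13.45 in the tumours (SD 0.17, n = 6), against 10.36 and 8.72 in the TRF2DBDM and GFP livers.

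Of the 34 measured genes of lipogenesis and lipid droplets, 3 passed the 4-fold rule, all higher. A limma fit across all genes, in which the spread came from the 6 tumours with 4 residual degrees of freedom and each liver was a group of its own, called 5.87% of all genes at a Benjamini-Hochberg adjusted p below 0.05, 3.11% higher and 2.75% lower in the tumours. The fit leaned on both livers too: 386 genes were called higher and 341 lower, against 186 and 89 without the TRF2DBDM liver and 64 and 42 without the GFP liver. Without single tumours the counts also moved by more than 1.5 times: 213 and 187 without mTERC+ replicate 1, 219 and 176 without mTERC+ replicate 2, 228 and 202 without mTERC- replicate 3, and 224 lower without mTERC+ replicate 3. Without mTERC- replicate 2, the tumour with the high Gapdh ratio, 470 genes were called higher and 443 lower. Counts and medians of gene lists below leave out the genes past the 4-fold rule, since the rule read the same contrast. The shares over all genes to read beside each list are 3.11% called higher and 2.75% called lower. Those for position are 11.4% with all tumours above both livers and 14.5% with all tumours below. Of the 31 other lipogenesis genes 2 were called higher and 1 lower, 4 lay above both livers in all tumours and 2 below, and the median difference was 0.37 against -0.03 over all genes. The higher calls were 10 with the deposited scaling, 1 without mTERC+ replicate 1, mTERC+ replicate 2 or mTERC- replicate 1, and 0 without mTERC+ replicate 3, mTERC- replicate 3 or either liver. Among the called genes Fasn, the fatty acid synthase, rose by 1.85 ± 0.43 (SE) on the log2 scale (limma adjusted p = 0.0271), from 9.04 and 8.49 in the TRF2DBDM and GFP livers to between 9.45 and 11.25 in the tumours. Plin2, the coat protein of hepatocyte lipid droplets, went the opposite way. It ranged from 11.94 to 12.82 in the tumours against 13.84 and 13.99 in the TRF2DBDM and GFP livers, and fell by 1.57 (limma adjusted p = 0.0142). Of 19 measured genes of cholesterol synthesis, 8 lay above both livers in all tumours (11.4% of all genes did so). Of them 2 were called higher and 0 lower, and the median over the 19 was 0.65. The higher calls were 14 of the 19 with the deposited scaling, and 1 to 3 with 1 array left out.

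Conjugating and reducing enzymes formed a further part of the higher genes. Gstm3, a glutathione S-transferase, ranged from 13.07 to 13.88 in the tumours (median 13.40) and was 10.11 in the TRF2DBDM liver and 8.67 in the GFP liver, a gap of 7.81-fold. Its probe set can read near-identical mu-class genes, so the gene assignment is uncertain. Akr1c18, an aldo-keto reductase that inactivates progesterone, was among the most variable higher genes, from 9.14 to 12.31 in the tumours (SD 1.07, n = 6), against 6.68 and 5.94 in the TRF2DBDM and GFP livers. Rida, an enzyme that clears reactive imines formed in amino acid breakdown, ranged from 9.96 to 10.71 (median 10.63), against 7.02 and 6.55. Of the 37 other measured genes of conjugation and transport, 8 were called higher and 0 lower by limma at the same threshold, and their median difference was 0.73. Without the GFP liver 2 were called higher, with only the mTERC- tumours 1, and with the deposited scaling 17. Gstm1 rose by 2.47 (limma adjusted p = 0.000953) and Abcb11, the bile salt export pump, by 2.34 (limma adjusted p = 0.0008). The cytochrome P450 list did not move one way: 2 of 32 genes were called higher and 6 lower, with a median of -0.05. These counts became 12 and 3 with the deposited scaling, 2 and 0 without the TRF2DBDM liver, 0 and 4 without the GFP liver, and 1 to 2 and 4 to 5 without 1 of the tumours. The median difference between the TRF2DBDM and GFP livers was 1.04 for the conjugation list and 1.49 for the P450 list, so the value of either list depends on which liver is read.

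Slc25a4, the heart and muscle form of the mitochondrial ADP/ATP carrier, ranged from 10.53 to 11.40 in the tumours (median 10.72) and was 7.83 in the TRF2DBDM liver and 7.75 in the GFP liver. Genes of oxidative phosphorylation as a list did not share its position, with 6 of 49 called higher, 1 called lower and a median difference of -0.04. Those calls became 26 higher and 0 lower with the deposited scaling, 1 and 0 without the GFP liver, and 6 and 4 without mTERC- replicate 2. Slc39a4, a zinc importer, ranged from 11.25 to 12.63 (median 11.90), against 8.05 and 9.01 in the TRF2DBDM and GFP livers. F5, coagulation factor V, ranged from 11.42 to 12.11 (median 11.64), against 9.25 and 8.36.

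Genes of epithelial surfaces and signalling made up most of the remaining higher members. Tspan8, a tetraspanin of biliary and gut epithelium that is expressed in several carcinomas, ranged from 9.25 to 10.91 (median 10.30), against 5.20 in the TRF2DBDM liver and 6.41 in the GFP liver. It was the only one of 8 measured cholangiocyte markers past the rule, and limma called no other of them. Summed over the 7 other cholangiocyte markers, the normalized signal was 429 to 960.0 in the tumours against 279 and 505 in the TRF2DBDM and GFP livers, so these ranges overlapped, and the part of bile duct cells in the Tspan8 value was not tested. Anxa13, an annexin of gut and kidney epithelium, ranged from 9.21 to 10.84 (median 10.15), against 6.15 and 6.64. Deptor, an inhibitor bound to the mTOR kinase complexes, ranged from 9.23 to 10.74 (median 9.83), against 6.95 and 6.02. Rhoq, a small GTPase of the Cdc42 group, ranged from 9.16 to 10.77 (median 10.01), against 7.12 and 6.94. Tmem71 ranged from 8.22 to 8.99 against 5.38 and 5.79, and Igdcc4, an immunoglobulin superfamily receptor, from 7.76 to 8.35 against 5.57 and 5.63. For Igdcc4 the highest tumour was the mTERC- replicate 2 with the high Gapdh 3'/5' ratio, and the other 5 lay between 7.76 and 7.89.

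A pair of long noncoding RNAs and a translation factor were also higher. Gas5, a noncoding host of small nucleolar RNAs whose transcript is stabilised when growth stops, ranged from 11.08 to 12.02 (median 11.43), against 7.73 and 7.63 in the TRF2DBDM and GFP livers, with a gap of 10.2-fold. Malat1, an abundant nuclear RNA, ranged from 10.99 to 13.04 (median 11.38), against 7.69 and 8.61. The highest Malat1 value was mTERC+ replicate 2, and the next tumour was at 11.76. Eif3e, a subunit of translation initiation factor 3, ranged from 12.18 to 12.94, against 10.15 and 9.41. Its other probe sets had smaller differences of 0.41, 1.32 and 1.07, and on the first of these the groups overlapped. Of 31 ribosomal protein genes 1 was called higher and 1 lower, with a median difference of -0.04. That rested on the scaling, since 18 were called higher and 0 lower in the deposited signals.

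The lower members fell mainly into acute phase proteins and cell cycle genes. Saa3, a serum amyloid A made by inflamed liver and by macrophages, had the widest gap in this direction, 19.6-fold. Its level was 9.08, 8.78 and 6.59 in the mTERC+ tumours and 9.14, 8.91 and 8.46 in the mTERC- tumours, against 13.44 in the TRF2DBDM liver and 13.67 in the GFP liver. The deposited Saa3 signals were 72.8 to 628.8 in the tumours and 5598 and 6058 in the TRF2DBDM and GFP livers. Saa2 ranged from 8.33 to 10.63 in the tumours (median 9.39), against 13.66 and 13.63 in the TRF2DBDM and GFP livers. Saa1 ranged from 8.29 to 12.43 (median 10.90), against 14.46 and 14.64, and without mTERC- replicate 2 it did not pass the 4-fold rule. The probe sets for Saa1 and Saa2 can read both of these near-identical genes, so their values are not independent and their assignment is uncertain. The spread between tumours was wide, with mTERC+ replicate 1 the highest tumour for both and mTERC+ replicate 3 the lowest.

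Hamp, the gene of hepcidin, the hormone that blocks iron export, was 8.86, 11.28 and 7.64 in the mTERC+ tumours and 10.04, 10.80 and 7.90 in the mTERC- tumours, against 13.76 in the TRF2DBDM liver and 13.83 in the GFP liver. The livers agreed within 0.07 on the log2 scale, while the tumours spread over more than 3 units, with mTERC+ replicate 3 and mTERC- replicate 3 lowest. Its probe set can also read the close copy Hamp2, whose own probe set ranged from 7.44 to 9.81 in the tumours and was 14.05 and 10.93 in the TRF2DBDM and GFP livers (difference -4.22, limma adjusted p = 0.000536). Id1, a target of the same BMP signal that induces hepcidin, fell by 2.72 (limma adjusted p = 0.0146), and the metallothionein Mt2 fell by 2.59 (limma adjusted p = 0.0398). Of the 22 other acute phase genes, 0 were called higher and 1 lower by limma, 6 lay above both livers in all tumours and 2 below, and the median difference was 0.09. With the deposited scaling 10 were called higher and 0 lower, with 15 above both livers and 0 below, whereas median centring gave 0 calls, with 9 above and 2 below. The 1 lower call was lost without mTERC+ replicate 1, mTERC- replicate 1 or 3, or either liver. Fgb, the fibrinogen beta chain, lay between 14.12 and 14.52 in the tumours against 13.95 and 13.96, and Lcn2 between 13.79 and 14.60 against 14.52 and 15.04 in the TRF2DBDM and GFP livers.

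Of the 16 lower members, 5 are cell cycle genes. Plk1, the polo kinase that drives mitotic entry and spindle assembly, was 6.85, 6.85 and 5.30 in the mTERC+ tumours and 6.89, 6.81 and 7.70 in the mTERC- tumours, against 9.87 in the TRF2DBDM liver and 11.18 in the GFP liver. Aurka, the centrosomal kinase that activates Plk1, ranged from 5.28 to 8.37 (median 7.48), against 10.41 and 11.45. Cdk1, the catalytic core of the mitotic kinase, ranged from 6.55 to 8.89 (median 8.37), against 10.94 and 11.42. The lowest tumour for all 3 kinases was mTERC+ replicate 3, and the GFP liver was above the TRF2DBDM liver for each. Cdca5, which protects cohesion between sister chromatids, ranged from 6.80 to 7.74 (median 7.56), against 9.87 and 9.90. Mcm5, a subunit of the helicase that opens replication origins, ranged from 5.23 to 7.44 (median 7.30), against 9.53 and 9.60. With the deposited scaling none of these 5 genes passed the 4-fold rule, although all 6 tumours stayed below both livers for each, with log2 gaps between -0.96 for Cdk1 and -1.27 for Mcm5.

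The upstream sequences of these 5 genes are shown because promoters of late cell cycle genes are known for a pair of short elements, the CCAAT box bound by NF-Y and the cell cycle homology region (CHR, TTTGAA) bound by the MuvB complexes. The 120 bases before the annotated start come from RefSeq on build GRCm38.p6 and are written along the strand of the gene. Capitals mark either element, read on either strand. Aurka lies at chr2:172370571-172370690 on the minus strand, Cdca5 at chr19:6084977-6085096 on the plus strand and Cdk1 at chr10:69352913-69353032 on the minus strand. Mcm5 lies at chr8:75109389-75109508 and Plk1 at chr7:122159315-122159434, both on the plus strand.
Aurka: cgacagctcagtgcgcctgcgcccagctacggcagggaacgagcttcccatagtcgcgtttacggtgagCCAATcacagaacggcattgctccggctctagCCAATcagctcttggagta
Cdca5: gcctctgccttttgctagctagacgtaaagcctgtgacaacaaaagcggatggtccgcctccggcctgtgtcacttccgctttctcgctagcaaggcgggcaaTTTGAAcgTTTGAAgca
Cdk1: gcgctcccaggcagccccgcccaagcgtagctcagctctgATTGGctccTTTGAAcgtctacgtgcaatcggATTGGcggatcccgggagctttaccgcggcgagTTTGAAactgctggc
Mcm5: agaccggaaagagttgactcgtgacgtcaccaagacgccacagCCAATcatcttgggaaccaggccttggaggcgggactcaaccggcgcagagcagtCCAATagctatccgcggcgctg
Plk1: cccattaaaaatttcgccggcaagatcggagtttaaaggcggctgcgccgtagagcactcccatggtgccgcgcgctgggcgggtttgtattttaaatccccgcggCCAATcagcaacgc

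Both motifs were searched on both strands of windows from 250 bases before to 50 bases after the start, and a match to one can share an end base with a match to the other. A CCAAT box was found in 4 of the 5 windows (Aurka, Cdk1, Mcm5 and Plk1) and in 37.4% of all 32851 mouse promoter windows of that length. TTTGAA was found in 4 of the 5 (Aurka, Cdca5, Cdk1 and Plk1) and in 17.9% of all windows. Aurka, Cdk1 and Plk1 had both, as did 6.95% of all windows. In Cdk1 and Cdca5 the printed bases hold TTTGAA at a pair of places each, whereas for Aurka and Plk1 it lies just after the start, outside the printed stretch. Over the 51 windows of the mitosis list, CCAAT was present in 78.4% and TTTGAA in 68.6%. These matches describe letters in the reference genome, and binding was not measured.

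Of the 53 other measured mitosis genes, 46 had all 6 tumours below both livers (14.5% of all genes did so) and 0 had all tumours above. Limma called 21 of them lower and 0 higher at an adjusted p below 0.05, against 2.75% of all genes lower, and their median difference was -1.60. Read tumour by tumour over all 57 genes, the list median ran from -2.34 to -1.25. Outside the 4-fold rule, Ube2c, the ubiquitin enzyme of the anaphase-promoting complex, ranged from 7.06 to 9.42 in the tumours against 11.35 and 12.42 in the TRF2DBDM and GFP livers, and fell by 3.40 (limma adjusted p = 0.00232). Cks1b, a small partner of cyclin-dependent kinases, ranged from 7.71 to 8.95 against 10.66 and 11.52, and fell by 2.71 (limma adjusted p = 0.000354). Ccna2, cyclin A2, ranged from 6.56 to 8.42 against 9.82 and 10.65, and fell by 2.64 (limma adjusted p = 0.00526). Mki67, the common histological marker of cycling cells, was lower by less, from 5.51 to 7.12 against 7.72 and 7.80, and did not pass the test (limma adjusted p = 0.259). The 21 calls were 11 without the TRF2DBDM liver, 1 without the GFP liver, 17 to 21 without 1 of the tumours, 3 with only the mTERC- tumours and 12 with the deposited scaling, where 23 of the 53 had all tumours below both livers. Of the 43 other genes of DNA replication, 22 had all tumours below both livers, 6 were called lower and 0 higher, with a median difference of -0.90. With the deposited scaling 4 of the 43 lay below both livers and 3 above, and 0 were called in either direction. The 6 calls were 0 without either liver and 3 without any 1 of the mTERC+ tumours.

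**Figure D2:**
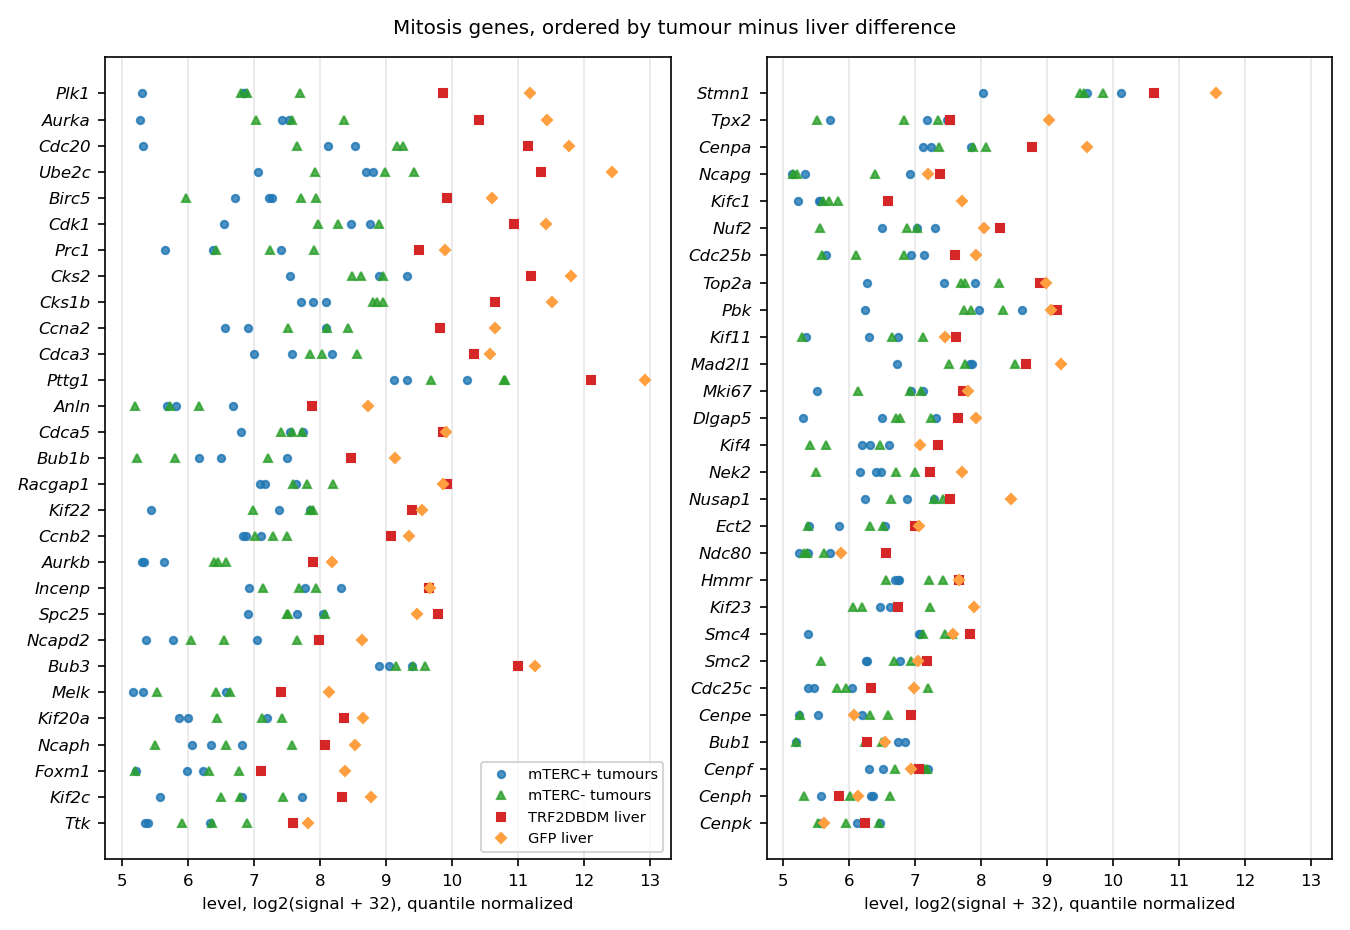
Levels of the 57 measured mitosis genes, in log2(signal + 32) after quantile normalization on the horizontal axis, with 1 point per array and genes ordered by the difference between tumours and livers. Circles and triangles are mTERC+ and mTERC- tumours, the square is the TRF2DBDM liver and the diamond the GFP liver. For 50 of the 57 genes, the 4 past the 4-fold rule among them, all 6 tumours lie to the left of both livers.

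Other lower members are linked to growth, chaperoning and chromatin. H2ax, the histone variant that is phosphorylated at DNA breaks and whose replication-linked transcript is made in S phase, was 8.33, 7.74 and 7.0 in the mTERC+ tumours and 7.86, 8.29 and 8.18 in the mTERC- tumours. It was 11.66 in the TRF2DBDM liver and 12.34 in the GFP liver, and its gap of 10.1-fold was the second widest of the lower genes. Kpna2, a nuclear import adaptor that is high in dividing cells, ranged from 8.33 to 8.98 (SD 0.24, n = 6), against 11.31 and 11.76. Odc1, the first enzyme of polyamine synthesis, ranged from 7.49 to 8.75 (median 8.18), against 11.08 and 11.75. Hsp90aa1, the stress-inducible HSP90 chaperone, ranged from 9.10 to 9.74 (median 9.42), against 12.22 and 12.04. Its other probe sets had smaller differences of -0.94 and -1.24, and on the latter the groups overlapped. Pa2g4, a growth-regulated protein that binds ribosomes, ranged from 5.19 to 8.63 (median 8.22), against 10.72 and 10.98. The lowest Pa2g4 value was in mTERC- replicate 2, the tumour with the high Gapdh 3'/5' ratio, and the other 5 were at 7.94 or above. Of the other Pa2g4 probe sets, the dimmest showed a difference of 0.03. Il17re, a receptor subunit for interleukin 17C, ranged from 5.30 to 5.97, near the floor of the scale, against 8.18 and 8.03. On its other probe set the groups overlapped, with a difference of -0.67. With the mean over probe sets Il17re did not pass the rule.

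Of 32 immediate early and regeneration genes, 10 lay below both livers in all tumours and 0 above, 4 were called lower and 0 higher, and the median difference was -0.69. Over all genes, 14.5% lay below both livers and 11.4% above, and 2.75% were called lower and 3.11% higher. The calls were 0 with the deposited scaling (3 genes above both livers and 1 below), with median centring and without either liver, 1 without any 1 of the mTERC+ tumours and 2 without mTERC- replicate 3. Of 26 measured p53 target genes, 4 were called lower and 0 higher, in mice that all lacked p53. The calls were 0 without either liver, 1 with the deposited scaling and 1 to 3 without 1 of the tumours. Among them Cdkn1a, the cyclin-dependent kinase inhibitor p21, ranged from 7.52 to 10.06 in the tumours against 11.61 and 11.42 in the TRF2DBDM and GFP livers, and fell by 2.83 (limma adjusted p = 0.0100). Of 48 interferon response genes, 1 was called higher and 3 lower, and 5 lay above both livers and 7 below. The counts above and below were near the shares over all genes. With the deposited scaling 5 were called higher and 0 lower, with 8 above both livers and 1 below. Without 1 of the tumours 0 to 2 were called higher and 0 to 4 lower, without the TRF2DBDM liver 0 and 1, and without the GFP liver 0 and 0. Of 46 chemokine and cytokine genes, 1 was called higher and 2 lower, 7 lay above both livers and 8 below, and the median difference was 0.08. Here too the counts above and below were near the shares over all genes. There were 0 calls without either liver, 0 higher and 1 lower without mTERC+ replicate 2 or 3, and 8 higher and 1 lower with the deposited scaling. The cytokine gene Ltb rose by 2.58 (limma adjusted p = 0.0212), Ccl2 fell by 2.42 (limma adjusted p = 0.00772) and Cxcl10 fell by 1.66 (limma adjusted p = 0.0272).

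Xist, the RNA that coats the inactive X chromosome in females, was lower in all tumours on its brightest probe set, with a gap of 5.71-fold. Its level there was 12.84 in the TRF2DBDM liver and 12.12 in the GFP liver. The mTERC+ tumours were at 5.35, 5.46 and 6.37 and the mTERC- tumours at 9.61, 6.38 and 5.55. On the other Xist probe sets the groups overlapped. In 1 of them mTERC- replicate 1 was at 9.53 and the GFP liver at 9.47. With the mean over probe sets Xist did not pass the rule. The Y-linked gene Eif2s3y went the other way from Xist, from 6.28 to 7.83 in the tumours against 5.19 and 5.11 in the TRF2DBDM and GFP livers. The Y-linked genes Uty and Kdm5d had overlapping ranges. The labels give no sex, and the part of sex in the other 40 genes was not tested. Lists of genes that differ between male and female liver had medians of 0.26 for 15 male-biased and -0.12 for 17 female-biased genes.

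Mpeg1, a pore-forming protein of macrophages, was the only one of 28 measured macrophage and Kupffer cell markers past the 4-fold rule: 12.22, 12.44 and 11.16 in the mTERC+ tumours and 10.87, 10.92 and 11.33 in the mTERC- tumours, against 8.16 in the TRF2DBDM liver and 8.81 in the GFP liver. Of the 27 other markers, 11 lay above both livers in all 6 tumours (11.4% of all genes did so) and 0 below. Limma called 10 higher and 0 lower, with a median difference of 1.61. The lysozyme gene Lyz1 ranged from 12.09 to 13.83 against 10.10 and 7.83, and rose by 3.68 (limma adjusted p = 0.000345). Clec4f, a lectin found on mouse Kupffer cells, ranged from 6.60 to 11.29 against 5.34 and 5.43, and rose by 3.21 (limma adjusted p = 0.0482). The general macrophage markers Adgre1 and Cd68 overlapped between the groups. The summed normalized signal of the 27 markers was 16010 to 80862 in the tumours against 9037 and 6658 in the TRF2DBDM and GFP livers. The tumours differed widely from each other, with medians over the 28 markers from 0.58 to 3.00 above the livers. The 10 calls were 7 without the TRF2DBDM liver and 0 without the GFP liver. They were 4 without mTERC+ replicate 1, 6 without either mTERC- replicate 1 or 3, 3 with only the mTERC+ and 1 with only the mTERC- tumours, and 17 with the deposited scaling. Of 17 antigen presentation genes 4 were called higher and 0 lower (2 without the GFP liver or with only the mTERC- tumours, 9 with the deposited scaling), among them Cd74, the invariant chain, which rose by 3.43 (limma adjusted p = 0.000355). Of 21 markers of T and NK cells, 2 lay above both livers in all tumours and 3 below, and the median was -0.42. These counts were near the shares over all genes, 11.4% above and 14.5% below. Of 12 neutrophil markers Mpo alone was called, and without the GFP liver 0 were. Mpo was 5.40 to 7.84 in the tumours against 9.37 and 10.05 in the TRF2DBDM and GFP livers, and fell by 3.25 (limma adjusted p = 0.00477).

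**Figure D3:**
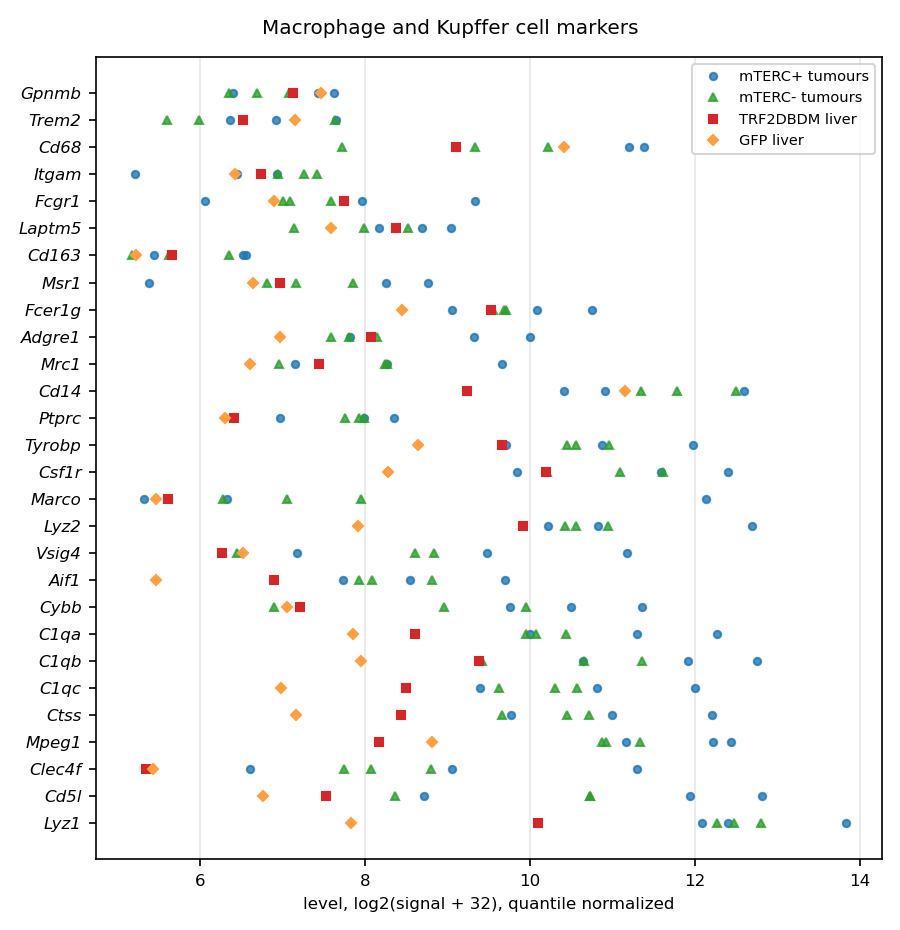
Levels of the 28 measured macrophage and Kupffer cell markers in log2(signal + 32) after quantile normalization, 1 point per array, with symbols for mTERC+ tumours (circles), mTERC- tumours (triangles), the TRF2DBDM liver (square) and the GFP liver (diamond). For 12 markers all tumours lie to the right of both livers, and the tumours of a row are often spread over several log2 units.

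Of 36 measured complement and coagulation genes, most of them hepatocyte products, F5 was the 1 past the 4-fold rule. Of the 35 others, 14 lay above both livers in all tumours and 0 below, and limma called 14 higher and 1 lower, with a median difference of 0.99. C9, a pore-forming component of the terminal pathway, ranged from 10.69 to 12.84 in the tumours, against 10.46 in the TRF2DBDM liver and 7.44 in the GFP liver, and rose by 3.04 (limma adjusted p = 0.000536). F9, coagulation factor IX, ranged from 9.58 to 10.66 against 8.14 and 7.27, and rose by 2.52 (limma adjusted p = 0.00256). The lectin Mbl2 was the one called lower, at -2.89 (limma adjusted p = 0.0402), although the tumours, from 5.34 to 9.42, overlapped the GFP liver at 9.01. The list had 0 lower calls without mTERC+ replicate 1 or 2, mTERC- replicate 2 or 3, or either liver. The TRF2DBDM liver was above the GFP liver by a median of 1.13 for this list. Without the GFP liver 0 of the 35 were called, and their median above that of all genes was 0.45, against 1.02 with both livers and 1.61 without the TRF2DBDM liver. The 14 higher calls were 1 with only the mTERC- tumours, 10 to 16 without 1 of the tumours, and 27 with the deposited scaling. The C1q genes are counted both here and among the macrophage markers.

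**Figure D4:**
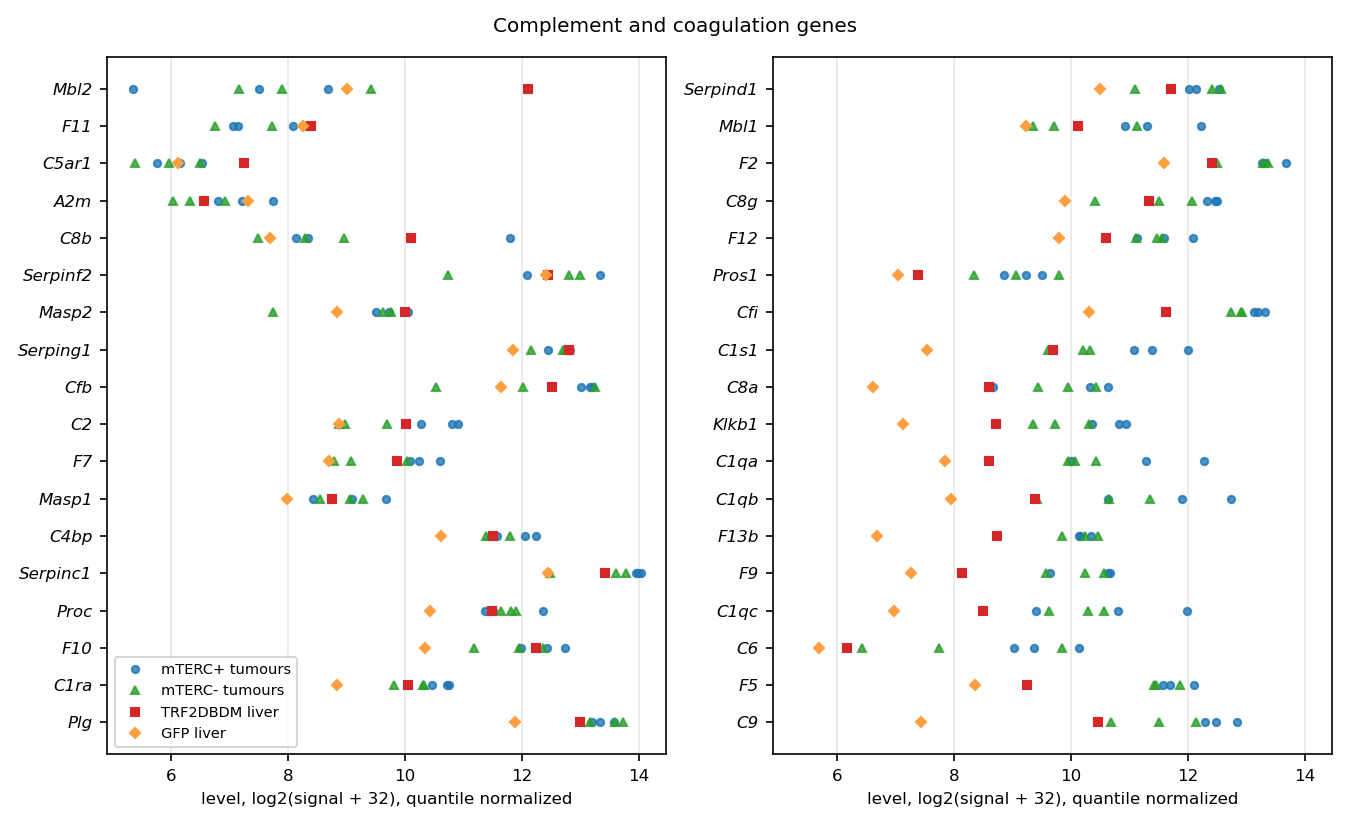
Levels of the 36 measured complement and coagulation genes in log2(signal + 32) after quantile normalization, 1 point per array, ordered by the difference between tumours and livers. Circles and triangles are mTERC+ and mTERC- tumours, the square is the TRF2DBDM liver and the diamond the GFP liver. In most rows the GFP liver lies to the left of the TRF2DBDM liver, and F5 and C9 at the lower right have all tumours to the right of both.

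Genes of the pericentral hepatocyte zone, which depend on Wnt signalling, included no member past the 4-fold rule, and 4 of 20 were called lower and 0 higher, with a median difference of -0.78. The calls were 0 without the TRF2DBDM liver or with only the mTERC- tumours, 2 without the GFP liver, and 2 higher and 2 lower with the deposited scaling. Cyp2e1, the ethanol-oxidising P450, ranged from 6.77 to 10.89 in the tumours against 13.50 and 11.89 in the TRF2DBDM and GFP livers, and fell by 3.68 (limma adjusted p = 0.00335). Lgr5, a receptor that amplifies Wnt signals, ranged from 5.16 to 6.37 against 7.48 and 7.97, and fell by 2.04 (limma adjusted p = 0.0162). Glul, glutamine synthetase and a marker of liver tumours with active beta-catenin, ranged from 8.19 to 9.80 against 11.01 and 10.99, and fell by 1.72 (limma adjusted p = 0.0430). No tumour exceeded either liver in these 3 genes.

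Of the 46 other oncofetal and liver tumour genes, 9 were called higher and 2 lower, with a median of 0.20. The higher calls were 16 with the deposited scaling, 3 without either liver, 5 without mTERC+ replicate 1 or 2, 4 without mTERC- replicate 3, and 7 to 10 without 1 of the other tumours. Golm1, a Golgi protein released by diseased hepatocytes, ranged from 9.65 to 10.56 in the tumours against 7.31 and 7.85 in the TRF2DBDM and GFP livers, and rose by 2.53 (limma adjusted p = 0.000776). Tff3, a secreted trefoil peptide, ranged from 8.69 to 13.36 against 6.83 and 6.89, and rose by 4.71 (limma adjusted p = 0.0174). The growth factor Mdk ranged from 7.50 to 10.77 against 6.64 and 6.44, and rose by 2.62 (limma adjusted p = 0.00512). Collagen and matrix genes had 4 of 38 called higher and 0 lower, with a median of 0.59, but 16 called higher with the deposited scaling, 0 without the GFP liver, 1 without mTERC+ replicate 1 or 2 and 2 without mTERC+ replicate 3, mTERC- replicate 3 or the TRF2DBDM liver. Of 18 stellate cell and fibroblast markers 2 were called higher and 1 lower, against 6 and 0 with the deposited scaling and 0 and 0 without the GFP liver.

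**Figure D5:**
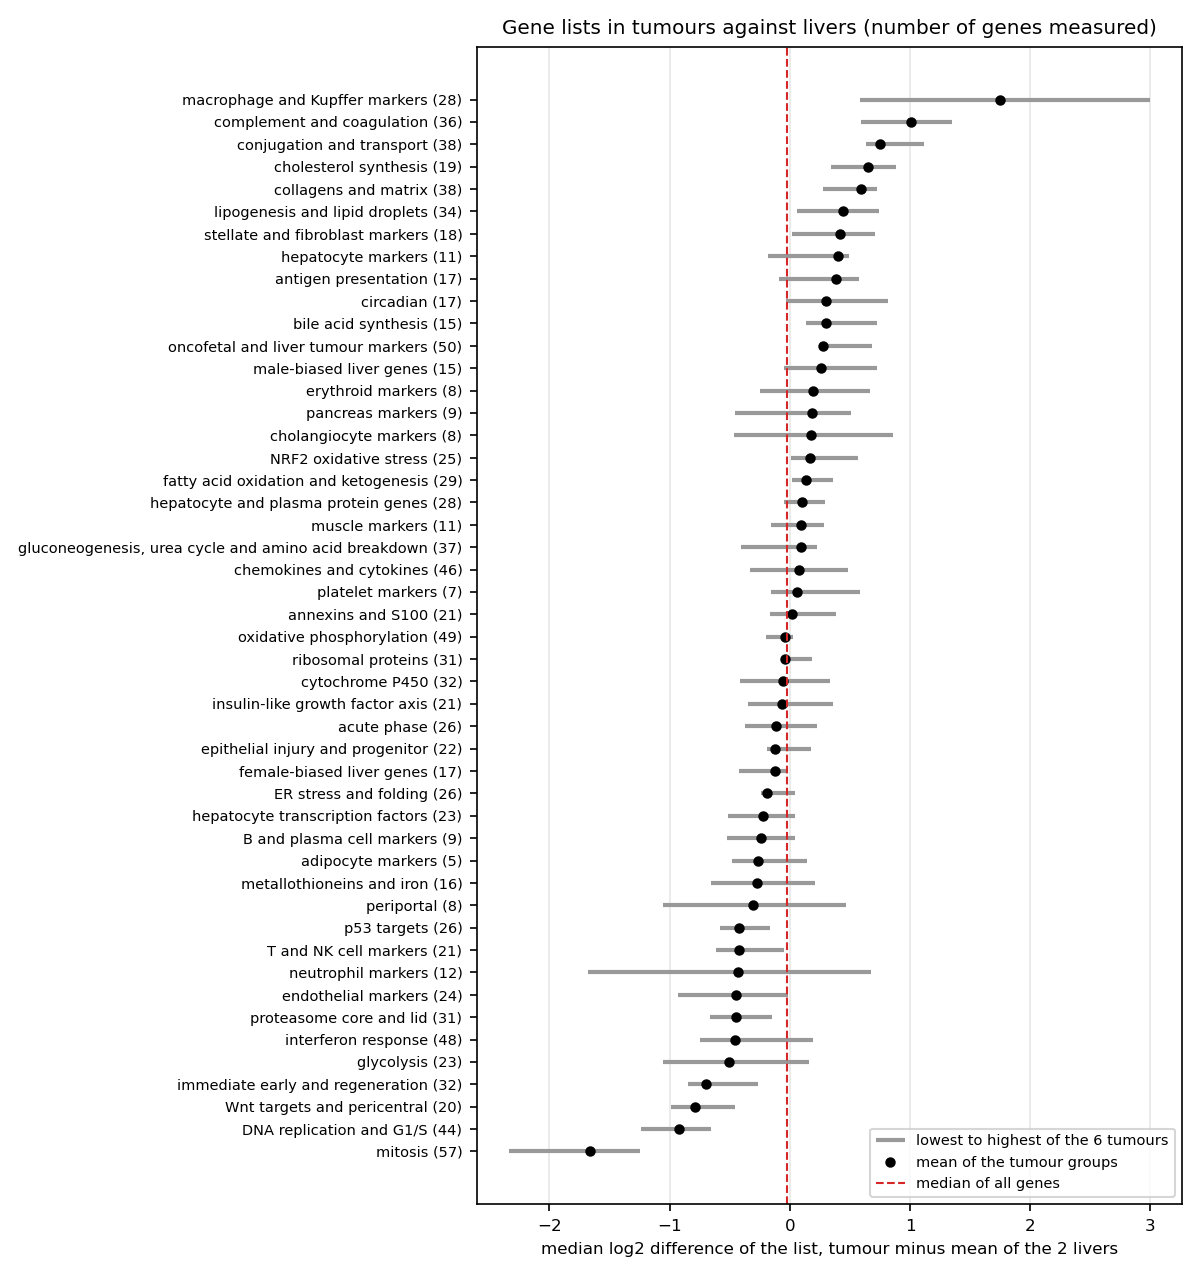
Median difference between tumours and livers for each gene list, in log2 units on the horizontal axis, with the number of measured genes in brackets, the genes past the 4-fold rule included. Dots give the mean of the tumour groups against the mean of the livers, bars run from the lowest to the highest single tumour, and the dashed line is the median of all genes at -0.03. Macrophage markers are at 1.74 and complement and coagulation at 1.01 at one end, and mitosis genes at -1.66 at the other.

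The rule does not use the mTERC labels, although it uses the level of every tumour. Limma called 0 of 41 between mTERC- and mTERC+ tumours, and 0 of all 12394 genes, with a smallest adjusted p of 0.912 among the 41. At an unadjusted p below 0.05, 3 of the 41 and 660 of all genes (5.33%) differed. The 3 were Scd1, lower in mTERC- by 0.76 on the log2 scale (13.03, 13.14 and 13.42 against 13.68, 14.07 and 14.11), Mpeg1, lower by 0.90, and Rhoq, higher by 0.94 (9.96, 10.68 and 10.77 against 10.06, 9.16 and 9.37). The mTERC groups did not overlap for Scd1, and they overlapped for Mpeg1 and Rhoq. None of these passed after adjustment, which does not show that the groups were alike. Of the 25 higher genes, 12 had the higher mean in mTERC- tumours, as did 11 of the 16 lower genes. These shares were not counted over all genes, where the median mTERC- minus mTERC+ difference was 0.003.

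The spread within the tumours is given as a description, since the rule read these same tumour levels. The higher genes were chosen for high tumour levels and the lower genes for low ones. The part of the rule and of the level in the spread was not tested. The range over the 6 tumours had a median of 1.08 log2 units among the higher genes and 2.32 among the lower genes, against 1.38 over all genes. It ran from 0.44 for Hsd11b1 to 3.17 for Akr1c18 in the higher set and from 0.64 for Hsp90aa1 to 4.25 for Xist in the lower set. The tumour nearest to the livers was mTERC+ replicate 2 for 8 of the 25 higher genes and mTERC- replicate 1 for 6, and mTERC- replicate 1 for 5 of the 16 lower genes. The livers were at least 2-fold apart for 5 of the 25 higher genes, of which 3 were higher in the TRF2DBDM liver, and for 2 of the 16 lower genes, both higher in the GFP liver, against 8.35% of all genes. Of the lower genes, 12 of 16 had the TRF2DBDM liver as the one nearer to the tumours. That share was not counted over all genes, where the median TRF2DBDM minus GFP difference was 0.008.

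Other probe sets of the same genes mostly gave the same direction. Of the 25 higher genes, 15 had more than 1 probe set, and 27 of their 28 other probe sets pointed the same way, 20 with no overlap and 6 past the 4-fold rule. Those with overlap belonged to Cpe, Deptor, Eif3e, Gas5, Malat1, Slc25a4 and Tspan8. Of the 16 lower genes, 8 had more than 1, and 13 of 14 pointed the same way, 8 with no overlap and 2 past the rule. Here those with overlap belonged to Hsp90aa1, Il17re, Pa2g4 and Xist. A further 10 genes were past the rule in the higher direction and 8 in the lower direction only on a dimmer probe set. The lower ones included the mitosis genes Prc1 and Cdc20 and the replication gene Rrm2, and the higher ones included H2-Ab1, a class II antigen presentation gene.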

How the data were processed

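Total RNA of 6 tumours and of 2 pools of infected liver was measured on 2 Affymetrix array types. The deposited values are intensities on a linear scale, the MAS5 signal of each probe set, per the submitters' processing notes, and the MAS5 version is not given in the sources used here. All 22690 probe sets of the liver array were also among the 45101 of the tumour array. Of the shared probe sets 20393 had 1 gene symbol in the platform annotation, 691 several and 1606 none; those with 1 symbol gave 12394 genes, of which 12370 matched a RefSeq gene ID.

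From the deposited intensities, log2(signal + 32) was computed and quantile normalized over the 8 arrays. Each gene was represented by its brightest probe set (highest mean of the tumour mean and the liver mean). A gene passed the rule where all 6 tumours lay outside both livers by at least 4-fold. The test across genes was limma 3.58.1 in R 4.3.3, with 4 groups, a variance trend, two-sided p-values and Benjamini-Hochberg adjustment at 0.05. It was used for gene lists and for the contrast of mTERC- with mTERC+ tumours, not for the genes the rule chose. The labels do not say more than separate tumours from separate mice. The code was tested on simulated data.

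The members and gene lists were chosen with earlier results of these data known, so no list is independent support for its own direction. Named genes were to be the 15 with the widest gap in each direction, list members past the rule, genes next to the threshold, cell type markers, tumour markers and sex chromosome genes. The other members of the 41 (Tmem71, Malat1, Deptor, Igdcc4) and the other genes named from lists with an adjusted p were chosen after their values were seen. Promoter windows were in the RefSeq table for 29 of the 41 genes. Alternatives covered the scaling, the pseudocount, a level filter, the probe set choice, the fold threshold, the limma settings and each array left out. Terc and Trp53 were not analysed here.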

Additional observations from a re-analysis of the deposited data

Results flagged for a closer look

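In 7 of the 41 genes (17.1%) a single tumour stood apart from the other 5 by Dixon's test, with a gap to the next tumour above 0.625 of the whole range. Chance alone flags about 1 in 20 groups of normally distributed values, and genes of 1 process are not independent. The share flagged over all 12394 genes was not computed, so the 17.1% is not shown to be an excess. In mTERC+ replicate 3 the level was lowest for Saa3 (6.59, next tumour 8.46), Cdca5 (6.80, next 7.41) and Plk1 (5.30, next 6.81). In mTERC- replicate 2, the tumour with the Gapdh 3'/5' ratio of 13.8, Pa2g4 was lowest (5.19, next 7.94) and Igdcc4 highest (8.35, next 7.89). Xist was highest in mTERC- replicate 1 (9.61, next 6.38). Malat1 was highest in mTERC+ replicate 2 (13.04, next 11.76). The part of RNA quality or tissue composition in these values was not tested.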

How the results depend on the processing

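Of the 41 genes, 14 passed the 4-fold rule in all 16 settings that kept the threshold and 1 value per gene, 12 of them higher and 2 (Saa3 and H2ax) lower. Most of these settings could hardly remove a gene. Leaving out arrays makes the rule easier to pass, apart from the renewed normalization, and the level filter does not change the levels. The scaling, the pseudocount and the mean over probe sets could remove genes. No called value changed sign in any setting with 1 value per gene. Read by single probe sets, Cpe had a probe set at -0.68 and Pa2g4 one at 0.03, each opposite to its gene. With the deposited scaling the rule gave 82 higher and 2 lower genes and limma 1784 and 67. Median centring gave 6 lower genes by the rule and 179 by limma. A pseudocount of 1 gave 61 and 29 genes by the rule, and a pseudocount above the main one gave 16 and 9. Counting all probe sets gave 42 and 26 by the rule and 1 call between the mTERC groups. The mean over probe sets gave 252 higher calls in limma. With only the mTERC+ tumours the rule gave 41 and 41 genes and limma 208 and 149 calls, and with only the mTERC- tumours the rule gave 38 higher genes and limma 49 and 24 calls. A 2-fold threshold gave 159 and 173 genes, and an 8-fold threshold 5 and 3. Without the variance trend limma made 208 and 199 calls. Leaving out single arrays gave 26 to 71 higher and 17 to 38 lower genes by the rule, 64 to 470 higher and 42 to 443 lower calls by limma, and 0 to 2 calls between the mTERC groups. Over whole lists, the genes past the rule included, and relative to all genes, the complement and coagulation median was 1.52 with the deposited scaling and with median centring, and 0.46 to 1.64 with single arrays left out. The mitosis median was -2.12 with a pseudocount of 1 and -1.02 with the higher one, which also put the replication median at -0.59. The cause of these shifts was not tested, except that leaving out arrays reduces the number of samples. No paired analysis was possible because the labels carry no replicate numbers that the groups share. Probe sets near the floor, as for Cpe, Il17re and Igdcc4 in one tissue, limit how large a ratio can be read, and the array type cannot be told apart from the tissue in any setting.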
